A study of Homo sapiens with 7 samples.

Results

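The genes described here are the cadherins and regulators of epithelial-mesenchymal transition. They were measured in NCI-H520 cells given shRNAs against single deadenylases, the enzymes that shorten the poly(A) tail of mRNA. The members were the 10 genes CDH1, CDH2, CDH3, CTNNB1, VIM, ZEB1, ZEB2, SNAI1, SNAI2 and TWIST1, found by the accession of each array probe in a RefSeq gene table. They make up 10 of the 19062 genes so named, and 15 of the 42405 gene probes. Of these genes, 5 had 1 probe and 5 had 2 probes.

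NCI-H520 is an established human cell line that was derived from a squamous lung carcinoma. Cells in all 7 groups received 6 µg of pLKO.1 plasmid, puromycin at 6 µg/mL from 12 h, and were harvested at 72 h. The 2 control groups received an empty vector or a non-target shRNA. The 5 deadenylase shRNA groups received an anti-PARN, anti-CNOT6, anti-CNOT6L, anti-CNOT7 or anti-NOC (nocturnin) shRNA. Each group was 1 single-colour array of bulk RNA, so no single difference has a replicate check. Untransfected cells are not analysed here. The labels give the CNOT6L and nocturnin shRNAs the same target accession, that of nocturnin, which leaves the target of the CNOT6L plasmid uncertain.

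Epithelial cells hold on to one another through adherens junctions, in which a cadherin in the membrane is tied to the actin cytoskeleton by catenins. In epithelial-mesenchymal transition E-cadherin is given up for N-cadherin, vimentin filaments appear and cells become motile, a program driven by the SNAI, ZEB and TWIST transcription factors, which bind E-box sequences and repress or activate these genes. Squamous carcinomas of the lung are tumours of epithelial origin.

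All values below are log2 of the processed probe signal minus the 75th percentile of the same array, called the level. A level says how a probe compares between arrays and is not set against the level of another probe. All 7 arrays were on 1 slide with 2 rows. Row 1 carried both controls together with the PARN and CNOT6 shRNA samples, whereas row 2 carried the CNOT6L, CNOT7 and NOC shRNA samples and held no control. The image of the NOC shRNA array was extracted at another time than the rest. The 75th percentile of signal ranged from 858 to 2372, the share of probes above background ranged from 82.0% on the non-target array to 91.5% on the empty-vector array, and the median SD between the 2 spots of a probe ranged from 0.048 to 0.073 log2. The number of arrays limits the precision. Each targeted mRNA was lowest on its own array, at 45.1% of the control mean for PARN, 87.9% for CNOT6, 64.7% for CNOT6L, 56.1% for CNOT7 and 76.0% for nocturnin. The smallest decreases were those of CNOT6, with -0.23 log2 from empty vector and -0.14 from non-target shRNA, and of nocturnin, with -0.60 and -0.20. For CNOT6L, CNOT7 and nocturnin the controls were in the other slide row. Of the 8 epithelial markers, which include the member CDH1, 8 were above background on all arrays, against 7 of 11 squamous markers. Among the latter DSG3 was above background on 0 arrays, KRT14 on 1, TP63 on 2 and KRT5 on 4, while SOX2 was above background on 7. The 5 leukocyte markers and the 5 endothelial markers with a named probe were also above background on all arrays, as were 5 of 6 alveolar markers, so this mark alone does not define a cell type.

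The 15 member probes were all above background on all 7 arrays, and 0 were saturated. Of them, 2 probes were printed on 10 spots, 10 on 2 spots and 3 on 1 spot. Their levels spanned between 0.20 and 1.43 log2 over the 7 arrays, with a median span of 0.69. Over the 33813 probes above background on all arrays the median span was 0.70. A span of at least 1 log2 (2-fold) was seen in 1 of 15 member probes and in 26.3% of all such probes. The member with that span was a dim TWIST1 probe. All other member probes, including the brighter TWIST1 probe, thus differed by less than 2-fold between any pair of arrays.

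**Figure D1:**
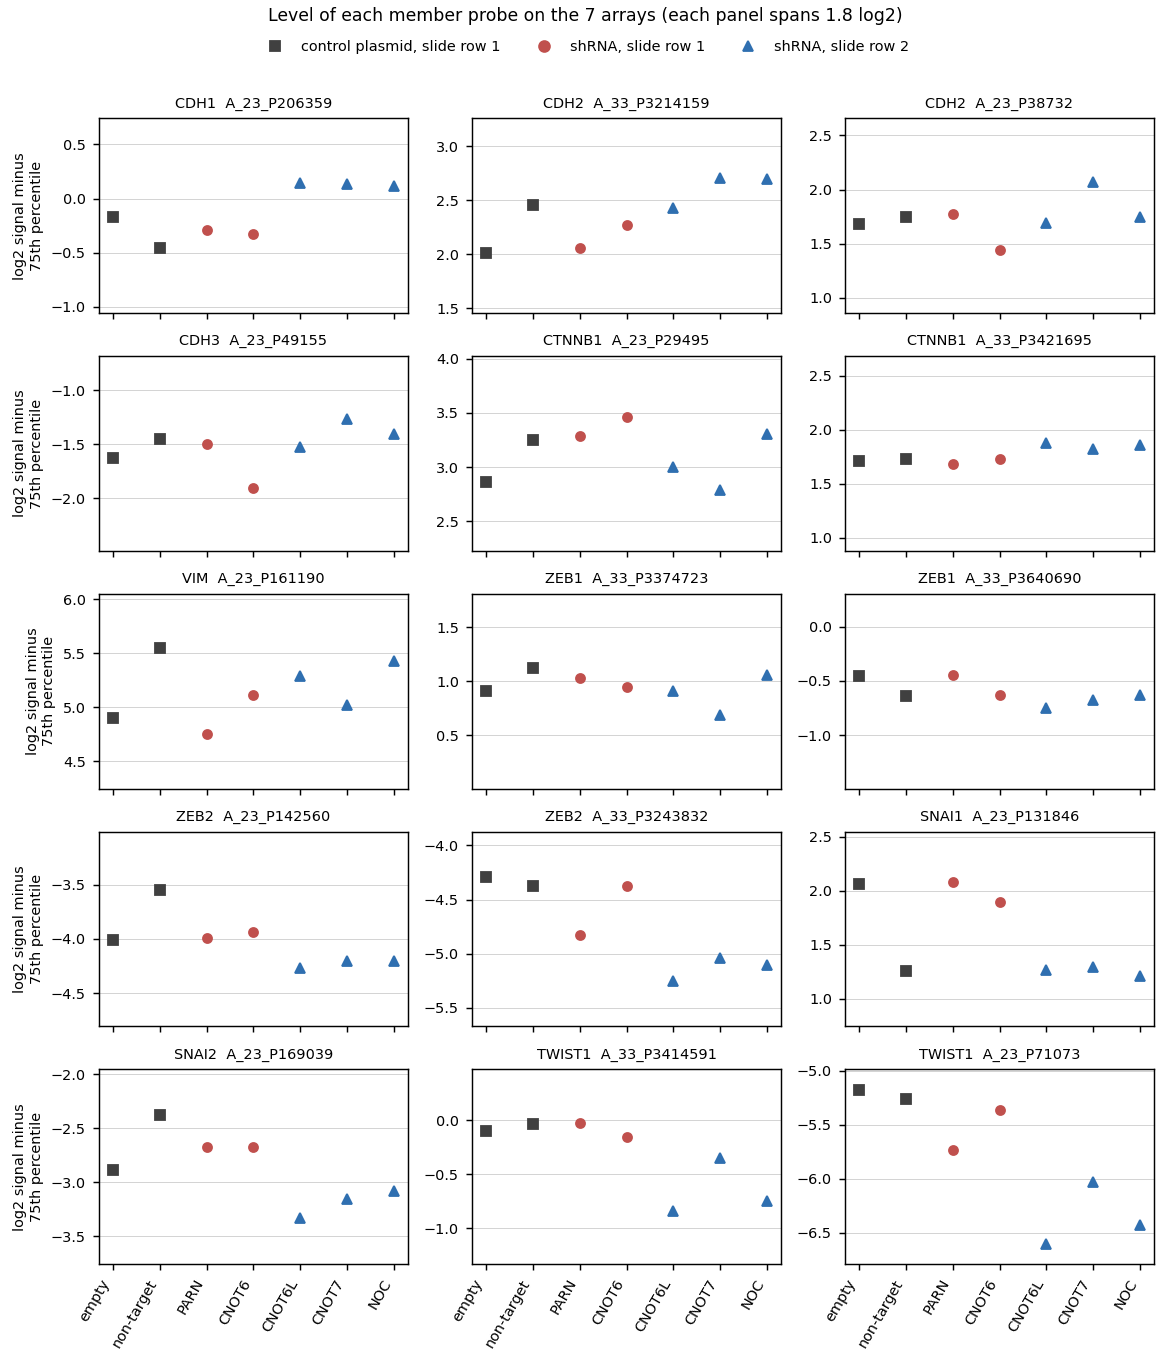
Level of each of the 15 member probes (log2 signal minus the array's 75th percentile, vertical axis, every panel 1.8 log2 high) on the 7 arrays (horizontal axis), 1 point per array and no error bar. Squares are the control plasmids, circles the shRNAs in slide row 1 and triangles the shRNAs in slide row 2. CDH1 was higher and both TWIST1 probes, both ZEB2 probes and SNAI2 were lower on the 3 row 2 arrays than on the 4 row 1 arrays.

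E-cadherin, the classical cadherin of epithelial junctions and the product of CDH1, was measured by a probe printed on 10 spots. Its level was -0.18 with empty vector, -0.46 with non-target shRNA, -0.29 with PARN shRNA and -0.33 with CNOT6 shRNA, and it was 0.14 with CNOT6L shRNA, 0.13 with CNOT7 shRNA and 0.12 with NOC shRNA. The 3 row 2 arrays were above all 4 row 1 arrays, and the row 2 arrays hardly differed from each other. CNOT6L shRNA cells had 0.32 log2 more signal than empty-vector cells and 0.60 more than non-target cells. The gap between the controls was 0.28, so the difference from the empty vector was about as large as that between the controls. In bulk RNA, fewer cells expressing a gene and less mRNA per cell cannot be told apart. Within an array the SD between the CDH1 spots ranged from 0.022 to 0.10 log2, over 8 to 10 spots, which is printing error and not error between cultures. With PARN and CNOT6 shRNA the level lay between the control arrays.

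N-cadherin, encoded by CDH2 and typical of neural and mesenchymal cells, was above background on every array. Its probe A_33_P3214159 read 2.01 with empty vector, 2.46 with non-target shRNA, 2.06 with PARN shRNA, 2.27 with CNOT6 shRNA, 2.43 with CNOT6L shRNA, 2.70 with CNOT7 shRNA and 2.70 with NOC shRNA. Its probe A_23_P38732, on 1 spot, read 1.68, 1.75, 1.78, 1.44, 1.69, 2.07 and 1.74 on the same arrays in that order. CNOT7 shRNA gave the highest level with both probes, shared with NOC shRNA by the first. It differed by 0.69 and 0.39 log2 from empty vector and by 0.25 and 0.32 from non-target shRNA. For NOC shRNA the probes disagreed, with 0.47 and 0.031 log2 above the control mean.

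P-cadherin, the product of CDH3 and a cadherin of basal epithelial layers, spanned 0.64 log2 over the arrays. The level was -1.62 with empty vector, -1.45 with non-target shRNA, -1.50 with PARN shRNA, -1.91 with CNOT6 shRNA, -1.53 with CNOT6L shRNA, -1.26 with CNOT7 shRNA and -1.41 with NOC shRNA. CNOT6 shRNA was the lowest array, with log2 differences of -0.28 from empty vector and -0.45 from non-target shRNA, and CNOT7 shRNA the highest. No cadherin among the members was 2-fold from both controls with any shRNA.

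Beta-catenin, encoded by CTNNB1, links cadherins to the cytoskeleton and is also the transcriptional effector of Wnt signalling. Its probe on 10 spots, A_23_P29495, read 2.87 with empty vector, 3.25 with non-target shRNA, 3.29 with PARN shRNA, 3.46 with CNOT6 shRNA, 3.002 with CNOT6L shRNA, 2.79 with CNOT7 shRNA and 3.30 with NOC shRNA. The probe A_33_P3421695 stayed between 1.68 and 1.88 on all arrays. The probes therefore ordered the arrays differently: by the first, CNOT6 shRNA was 0.40 log2 above the control mean, and by the second 0.0094. The SD between the 10 spots of the first was at most 0.091 log2 on any array, which is printing error only.

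**Figure D2:**
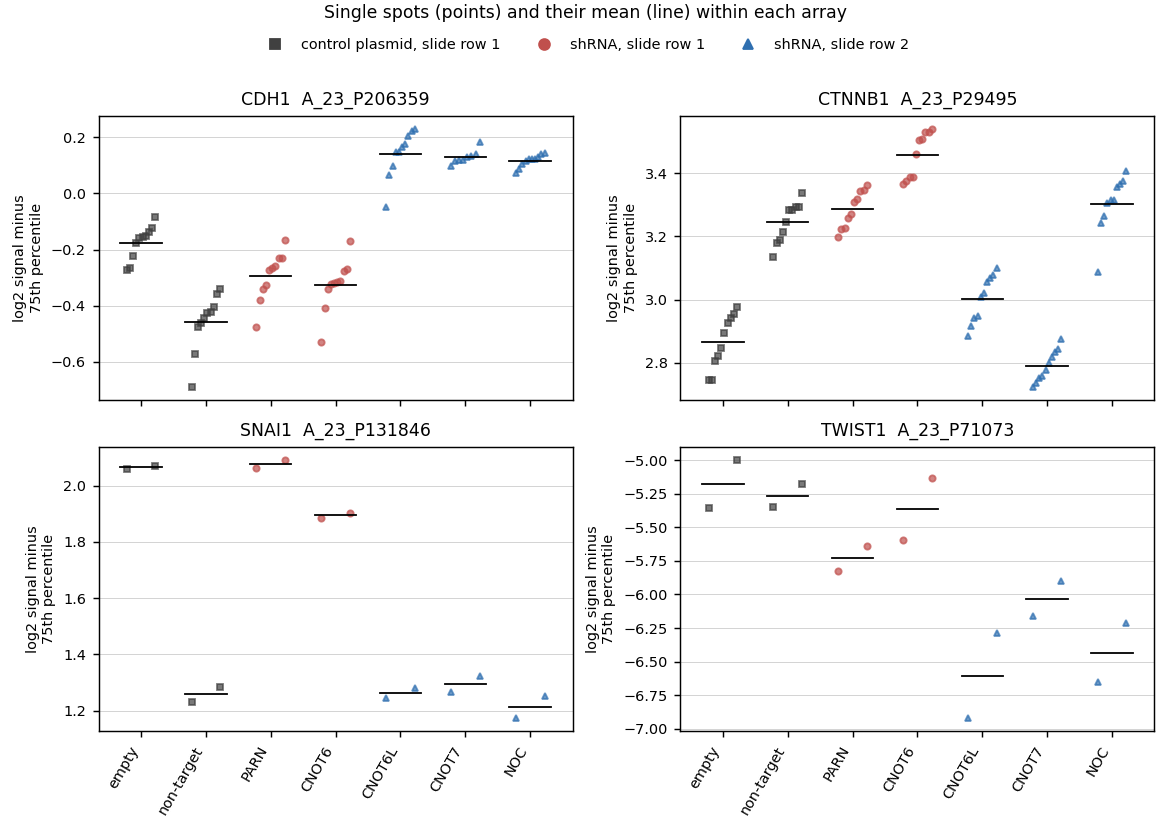
Single spots (points, ordered by value within an array) and their mean (line) for the CDH1 and CTNNB1 probes printed on 10 spots and the SNAI1 and TWIST1 A_23_P71073 probes printed on 2 spots; the vertical axis is log2 signal minus the array's 75th percentile and differs between panels. The CDH1 spots overlapped between arrays of the same row, except that every non-target spot (highest -0.34) lay below every empty-vector spot (lowest -0.27). Every row 2 spot of CDH1 (lowest -0.048) lay above every row 1 spot (highest -0.084). The TWIST1 spots differed by up to 0.63 log2 within an array.

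Vimentin, the intermediate filament protein of mesenchymal cells, was read by 1 probe of VIM. The level was 4.90 with empty vector, 5.54 with non-target shRNA, 4.75 with PARN shRNA, 5.11 with CNOT6 shRNA, 5.29 with CNOT6L shRNA, 5.02 with CNOT7 shRNA and 5.43 with NOC shRNA. The controls were 0.65 log2 apart, and 4 of the 5 deadenylase shRNA arrays lay between them. PARN shRNA was the lowest array, with log2 differences of -0.15 from empty vector and -0.79 from non-target shRNA. Markers of fibroblasts, cells that also make vimentin, were above background on all arrays for 6 of 9 genes, with COL3A1 and LUM above background on 0. Their summed level ran from -0.83 to -0.31 on the control arrays and from -0.57 to -0.059 on the shRNA arrays, and their part in the VIM levels was not tested.

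SNAI1 (Snail), a zinc finger repressor of E-cadherin, separated the arrays into 2 sets. The level was 2.06 with empty vector, 2.08 with PARN shRNA and 1.89 with CNOT6 shRNA, against 1.26 with non-target shRNA, 1.26 with CNOT6L shRNA, 1.29 with CNOT7 shRNA and 1.21 with NOC shRNA. No array lay between 1.29 and 1.89. The SD between the 2 spots was at most 0.055 log2. Because the controls themselves were 0.81 log2 apart, one in each set, PARN shRNA was 0.011 log2 from the empty vector and 0.82 above non-target, while NOC shRNA differed from them by -0.85 and -0.046. The low set was made up of every row 2 array and the non-target array, which is in row 1.

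SNAI2 (Slug), the related repressor found in basal epithelium and neural crest, read -2.89 with empty vector, -2.38 with non-target shRNA, -2.67 with PARN shRNA and -2.68 with CNOT6 shRNA. It read -3.33 with CNOT6L shRNA, -3.16 with CNOT7 shRNA and -3.08 with NOC shRNA. All row 2 arrays were below all row 1 arrays, though the difference of NOC shRNA from empty vector, -0.19 log2, was smaller in size than that of empty vector from non-target shRNA, -0.51.

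TWIST1, a basic helix-loop-helix factor of mesoderm and neural crest, was the member with the lowest values relative to the controls. The probe A_33_P3414591, on 1 spot, read -0.10 with empty vector, -0.029 with non-target shRNA, -0.023 with PARN shRNA and -0.16 with CNOT6 shRNA. It read -0.84 with CNOT6L shRNA, -0.35 with CNOT7 shRNA and -0.75 with NOC shRNA. The controls differed by 0.072 log2, and CNOT6L and NOC shRNA differed from their mean by -0.77 and -0.68, which is 0.586 and 0.623 of the control signal.

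The other TWIST1 probe, A_23_P71073, moved the same way on row 2. It read -5.18 with empty vector, -5.27 with non-target shRNA, -5.73 with PARN shRNA, -5.36 with CNOT6 shRNA, -6.60 with CNOT6L shRNA, -6.03 with CNOT7 shRNA and -6.43 with NOC shRNA. CNOT6L shRNA differed by -1.43 and -1.34 log2 from empty vector and non-target shRNA, and NOC shRNA by -1.26 and -1.17. The probe was dim, with processed signals of 20.8 to 55.7, and its 2 spots differed by up to 0.63 log2 on 1 array. With normexp background correction, which adds an offset of 50, the differences from the control mean became -0.54 and -0.41 for this probe and were -0.77 and -0.68 for the brighter probe.

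ZEB2, a zinc finger homeobox repressor, was likewise lower on the row 2 arrays. Probe A_23_P142560 read -4.01 with empty vector, -3.55 with non-target shRNA, -3.99 with PARN shRNA, -3.93 with CNOT6 shRNA, -4.27 with CNOT6L shRNA, -4.20 with CNOT7 shRNA and -4.20 with NOC shRNA. Probe A_33_P3243832, on 1 spot, read -4.29, -4.37, -4.83, -4.37, -5.25, -5.04 and -5.11 on those arrays in that order. For CNOT6L shRNA the difference from the control mean was -0.48 with the first probe and -0.92 with the second. Both probes were dim, with processed signals of 56.2 to 129 and of 41.4 to 103. The 2 spots of the first probe differed by 0.43 log2 on the CNOT6L shRNA array. With normexp background correction the differences for CNOT6L shRNA were -0.38 and -0.56.

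ZEB1, the paralogue of ZEB2, differed little between arrays. Probe A_33_P3374723 read 0.91 with empty vector, 1.13 with non-target shRNA, 1.03 with PARN shRNA, 0.94 with CNOT6 shRNA, 0.91 with CNOT6L shRNA, 0.69 with CNOT7 shRNA and 1.06 with NOC shRNA. Probe A_33_P3640690 ran from -0.75 to -0.44. CNOT7 shRNA differed from the control mean by -0.33 log2 with the first probe and by -0.13 with the second.

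SNAI and ZEB proteins bind the E-box letters CAGGTG, read as CACCTG on the opposite strand. Among the members, RefSeq promoters of build GRCh38.p14 were used for CDH2 (2 promoters), CTNNB1 (1), VIM (1), ZEB1 (7) and ZEB2 (1). Promoters of CDH1, CDH3, SNAI1, SNAI2 and TWIST1 were not searched. In the 250 bases before the start site, CAGGTG or CACCTG was present in 2 of the 7 ZEB1 promoters and in 0 of those of the other 4 genes. Over all 35116 promoters of this length the share was 17.5%. The other E-box CAGCTG, which reads the same on both strands and whose match overlapped none of the others, was in 1 ZEB1 promoter and in 14.0% of all promoters. The ZEB1 matches are shown because they are the E-boxes found in the promoters searched. The first 3 hold CAGGTG or CACCTG and the last holds CAGCTG, and all are on the plus strand of the genome, the strand of ZEB1, with the E-box in capitals.
ZEB1, chr10:31318348-31318377, E-box from -57 to -52 of the start site: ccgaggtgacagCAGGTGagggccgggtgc
ZEB1, chr10:31318966-31318991, E-box from -242 to -237: ccccaccaCACCTGaggaaaactttt
ZEB1, chr10:31319119-31319148, E-box from -85 to -80: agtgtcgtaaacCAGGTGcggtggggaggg
ZEB1, chr10:31320528-31320553, E-box CAGCTG from -14 to -9: ctacttgcaccgCAGCTGcagtgttt
A match is a description of the letters and not a measured binding site.

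Each shRNA was next compared with both controls to see which members were changed 2-fold or more, the same way, against each control. With PARN shRNA 0 of 15 member probes were higher and 0 lower, against 0.393% and 0.519% of all probes tested. With CNOT6 shRNA the counts were 0 and 0, against 0.391% and 0.308%. With CNOT6L shRNA 0 were higher and 1 lower, against 0.374% and 0.72%. With CNOT7 shRNA the counts were 0 and 0, against 0.504% and 0.928%. With NOC shRNA 0 were higher and 1 lower, against 0.606% and 1.29%. The called probe was TWIST1 A_23_P71073 in both cases, and the brighter TWIST1 probe was not called. The control arrays are shared by all 5 comparisons. With 15 probes, 1 call is the smallest share above 0 that can be seen, and it does not set the members apart from the background.

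**Figure D3:**
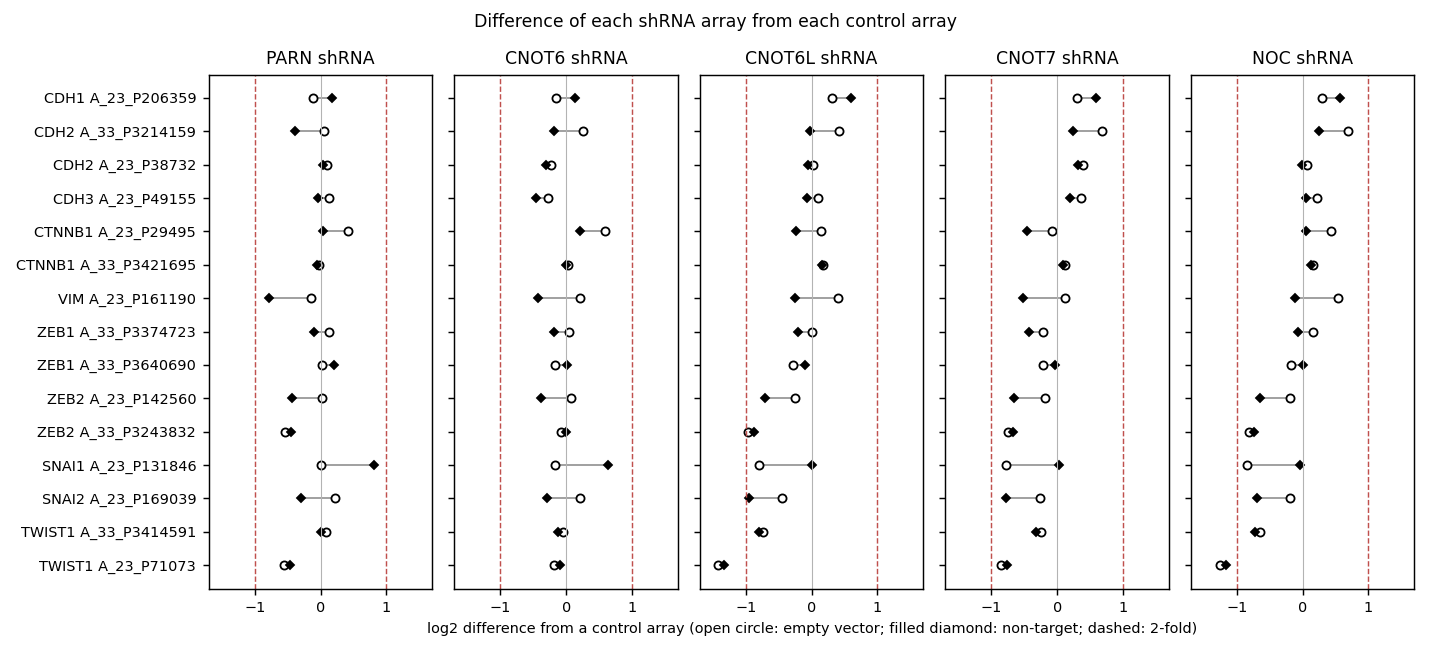
Log2 difference of each shRNA array from the empty-vector array (open circles) and from the non-target array (filled diamonds) for the 15 member probes, 1 panel per shRNA; the grey line joins both differences and the dashed lines mark 2-fold. Only TWIST1 A_23_P71073 lay beyond 2-fold from both controls, with CNOT6L and NOC shRNA, and the SNAI1 line was long in every panel because the controls were 0.81 log2 apart.

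The median difference of the member probes from the control mean was 0.014 log2 with PARN shRNA, -0.072 with CNOT6 shRNA, -0.10 with CNOT6L shRNA, -0.26 with CNOT7 shRNA and 0.031 with NOC shRNA. Over all probes the medians were -0.035, 0.084, 0.021, -0.038 and -0.039 on those arrays in that order. Between the control arrays themselves, 0 of 15 member probes differed 2-fold, while 17.1% of all probes were 2-fold higher and 0.767% were 2-fold lower with empty vector than with non-target shRNA.

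Within slide row 2 each array was also compared with the other 2 arrays of that row, where the row is held constant. No member probe was 2-fold from both row mates, 0 of 15 in either direction for each array. Of all probes, 0.989% were higher and 0.33% lower with CNOT6L shRNA, 0.272% and 0.089% with CNOT7 shRNA, and 0.293% and 0.238% with NOC shRNA. TWIST1 differed most here: CNOT7 shRNA was 0.49 log2 above the mean of its row mates with A_23_P71073 and 0.45 above it with A_33_P3414591. CDH1 differed from the row mates by 0.019 log2 or less on every row 2 array.

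Across slide rows, 2 of 15 member probes (13.3%) had all row 2 arrays above all row 1 arrays, namely CDH1 and CTNNB1 A_33_P3421695, against 11.3% of all probes. A further 5 of 15 (33.3%) had all row 2 arrays below all row 1 arrays, against 12.1%, and these were both TWIST1 probes, both ZEB2 probes and SNAI2, so 3 genes. With normexp background correction the count below stayed at 5 of 15, but the share of all probes rose to 25.8%. The remaining 8 probes overlapped. Without scaling between arrays all probes shifted upwards by a median of 0.64 log2 on row 2, so that 0 member probes lay below and 8 above. Of all probes 0.299% then lay below and 29.8% above. Dim probes in general read lower on row 2: over all probes the median difference between rows was -0.10 and -0.12 log2 in the dimmest and next of 4 equal bins of mean signal, -0.023 in the third and 0.095 in the brightest. Centred on the probes of most similar signal, CDH1 still lay above on row 2, and both TWIST1 probes, SNAI2 and ZEB2 A_33_P3243832 still lay below, while CTNNB1 A_33_P3421695 and ZEB2 A_23_P142560 overlapped. Because row 2 held CNOT6L, CNOT7 and NOC shRNA and no control, slide row and deadenylase cannot be told apart.

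The fit across all features compared the 5 shRNA arrays with the 2 control arrays, so its spread includes the differences among shRNAs and among plasmids. By limma, 0 of 38090 probes (0.0%) passed a Benjamini-Hochberg adjusted p of 0.05, and 1427 (3.75%) had an unadjusted p below 0.05. Among the members 0 of 15 passed and 0 of 15 had an unadjusted p below 0.05, with a smallest adjusted p of 0.998 by limma. The estimates were -0.81 log2 (SE 0.39) for TWIST1 A_23_P71073, -0.59 (SE 0.29) for ZEB2 A_33_P3243832 and 0.27 (SE 0.19) for CDH1. With normexp background correction the same estimates were -0.18 (SE 0.33), -0.29 (SE 0.30) and 0.26 (SE 0.18). Those of the dim TWIST1 and ZEB2 probes thus depended on the background treatment. With slide row as a term the shRNA estimate rests on the PARN and CNOT6 arrays against the controls, since row 2 held no control. These estimates were then -0.33 (SE 0.37), -0.27 (SE 0.28) and 0.0069 (SE 0.14), and TWIST1 A_33_P3414591 went from -0.36 to -0.024. Without the empty-vector or the non-target array the CDH1 estimate ran from 0.13 to 0.41.

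When slide row entered the fit as a second term, that term set the 3 row 2 shRNA arrays against the PARN and CNOT6 shRNA arrays. It passed in 1455 of 38090 probes (3.82%) and in 0 of 15 member probes. An unadjusted p below 0.05 was found for 6 of 15 member probes (40%) and 22.5% of all probes. The members nearest the threshold were CDH1, with 0.44 log2 (SE 0.13, limma adjusted p = 0.0909), SNAI1, with -0.73 (SE 0.21, limma adjusted p = 0.0935), and TWIST1 A_33_P3414591, with -0.55 (SE 0.16, limma adjusted p = 0.101). A p that misses the threshold does not show that the levels were equal.

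**Figure D4:**
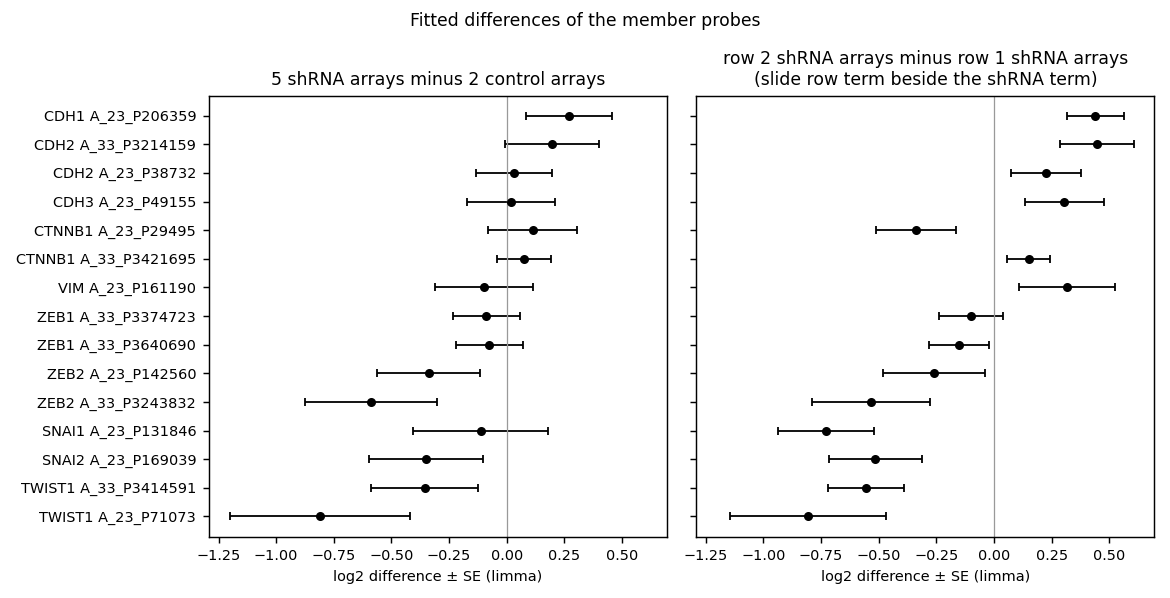
Fitted log2 differences (points) with their SE (bars) from limma for the 15 member probes. On the left are the 5 shRNA arrays minus the 2 control arrays, and on the right the slide row term, which compares row 2 with row 1 shRNA arrays; no member passed an adjusted p of 0.05 in either.

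The wider pathway was followed through 8 lists with 160 entries, of which 156 had a named probe, each gene read by its brightest probe. Over the 5 shRNAs that gives 780 gene and array pairs, of which 0 were called higher and 3 lower than both controls (0.385% of pairs), and all 3 were other cadherins. That share is no larger than the background, since of all probes 0.374% to 0.606% were called higher and 0.308% to 1.29% lower on single arrays. Among 20 further cadherins 2 genes were called lower, in 3 of their 100 pairs. With CNOT6L shRNA 2 of 20 were called lower, against 0.72% of all probes, and with NOC shRNA 1 of 20, against 1.29%. The pairs share the control arrays and CDH8 counts in 2 of them, so they are not separate observations. Whether this list differs from the background was not tested. CDH16, a cadherin of kidney tubules, read -1.27 with empty vector, -2.04 with non-target shRNA, -1.25 with PARN shRNA, -1.09 with CNOT6 shRNA, -3.18 with CNOT6L shRNA, -2.75 with CNOT7 shRNA and -2.94 with NOC shRNA. CDH8, a neuronal type II cadherin on 1 spot, read -3.26, -3.73, -3.23, -3.24, -4.93, -4.51 and -4.75 on those arrays in that order. The call for CDH16 was with CNOT6L shRNA, with log2 differences of -1.91 from empty vector and -1.14 from non-target shRNA. The calls for CDH8 were with CNOT6L shRNA, with -1.68 and -1.20, and with NOC shRNA, with -1.49 and -1.01. With normexp correction the differences from the control mean were -0.97 and -0.87 log2 for CDH8, under 2-fold, and -1.36 for CDH16. Both genes were low on all row 2 arrays, and with CNOT6L shRNA their differences from the row mates were -0.34 and -0.30 log2.

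No gene was called among the 17 measured catenins and adherens junction partners, 21 genes of beta-catenin signalling, 13 other transcription factors of the transition, 22 regulators of epithelial identity, 26 mesenchymal products such as fibronectin and collagens, 20 genes of the TGF-beta pathway and 17 SNAI and ZEB cofactors. The list medians on single arrays ran from -0.28 to 0.12 log2 for the further cadherins and from -0.29 to -0.058 for the other transcription factors. The medians of these factors and of beta-catenin signalling, from -0.098 to -0.012, were below 0 on all 5 arrays. All 5 arrays share the same controls. Over all probes the medians were also below 0 with PARN, CNOT7 and NOC shRNA, at -0.035, -0.038 and -0.039. They were above 0 with CNOT6 and CNOT6L shRNA, at 0.084 and 0.021. For the mesenchymal products they ran from -0.12 to 0.084 and for the regulators of epithelial identity from -0.18 to 0.082.

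**Figure D5:**
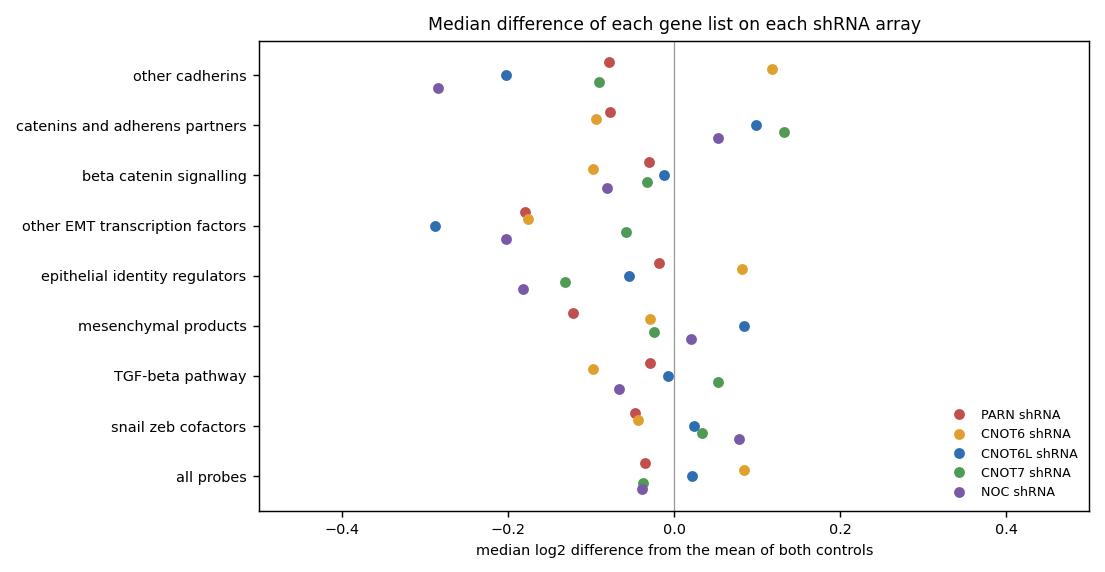
Median log2 difference from the mean of both controls for each gene list (rows) on each shRNA array (coloured points), with the median of all probes in the lowest row; medians of log2 values have no error bar, since each group is 1 array. All medians lay between -0.29 and 0.13 log2.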

How the data were processed

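The authors hybridised Cy3-labelled cRNA of each sample to a single-colour Agilent array. The deposited scanner files hold the intensity of 62976 spots per array and its background flags, from Feature Extraction 10.7.3.1 per the submitters' processing notes. The deposited series table holds log2 values centred on the median of the 7 arrays for each probe, with the arrays' scaling not given in the sources used here, and served as an alternative. Log2 of the processed signal was scaled by the 75th percentile of each array, leaving out control spots and outlier spots and averaging spots. A probe was above background when at least 50% of its spots were. In a 2-fold comparison a dimmer side not above background was raised to the lowest value above background on its array, unless its own value was larger. Probes were named through RefSeq (GRCh38.p14), CNOT6 through the accession in the labels after a zero missing from it was restored.

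The fit used limma 3.58.1 in R 4.3.3 (lmFit, eBayes with trend, two-sided, Benjamini-Hochberg) on probes above background on at least 2 arrays. On simulated data for this fit over 38090 probes, 31 of 100 changes of 1 log2 and 67 of 100 of 2 log2 were recovered, with 5 false calls. The simulated noise was independent between probes and arrays, and each change was added alike to all 5 shRNA arrays. The real arrays differ by slide row and by shRNA, so these shares do not give the recovery in the real data. The p-values measure the spread between these arrays. Groups came from the sample titles.

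The members and the gene lists were chosen with earlier results of these data known. The text names all members, at most 3 called genes per list and direction, and the targeted mRNAs. Genes of like pattern were to be named for members whose brightest probe spanned at least 1 log2, and 0 did. Alternatives were quantile normalization, no scaling, normexp with an offset of 50 on the median signal (no mean signal column was used), the series table, no background filter, outlier spots kept, other fold thresholds, single controls, no trend, slide row as a term and leaving out each array.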

Additional observations from a re-analysis of the deposited data

How the results depend on the processing

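The count of member probes called moved as follows. The 1 probe called with CNOT6L shRNA, TWIST1 A_23_P71073, became 0 without scaling, with normexp correction and at 4-fold, and 3 at 1.5-fold. The 1 probe called with NOC shRNA became 0 with quantile normalization, without scaling, with normexp correction, when centred on probes of like signal and at 4-fold, and 3 at 1.5-fold. The cause was not tested. CNOT7 shRNA went from 0 to 2 at 1.5-fold, and CNOT6 shRNA from 0 to 5 without scaling, where 14.4% of all probes were called. At 1.5-fold 5.23%, 5.68% and 6.49% of all probes were called with CNOT6L, CNOT7 and NOC shRNA. Between the controls 0 became 1 without scaling and 2 at 1.5-fold, against 33.2% and 32.7% of all probes. Member probes with row 2 above row 1 were 8 without scaling (29.8% of all probes) and 1 when centred on like signal (12.3%), and those with row 2 below row 1 were 3 with quantile normalization (11.3%) and 0 without scaling (0.299%). With normexp correction those below stayed at 5, against 25.8% of all probes. Leaving out 1 row 1 array gave 2 to 3 above and 5 to 6 below. These counts can only stay or rise when a row 1 array is dropped, and no share of all probes is given beside them. No alternative of the limma fit called a member. Over all probes it called 64 without the empty-vector array, 10 without the non-target array and 13 without scaling, and 0 otherwise. With slide row as a term 6 of 15 member probes changed sign in the shRNA fit, and without scaling 2, none passing the threshold. For the brighter probe of each gene these were CDH2 with slide row as a term (-0.070), CDH3 without scaling (-0.032) and with slide row (-0.16), and SNAI1 with slide row (0.32). The other probes that turned were CDH2 A_23_P38732 (-0.10 with slide row, -0.018 without scaling), and with slide row CTNNB1 A_33_P3421695 (-0.015) and ZEB1 A_33_P3640690 (0.015). Over the fits that left out 1 array the difference of that probe ran from 0.13 to 0.41 for CDH1, -0.57 to -0.11 for ZEB2, -0.60 to -0.096 for SNAI2, -0.46 to -0.25 for TWIST1, -0.024 to 0.42 for CDH2, -0.067 to 0.11 for CDH3 (also -0.047 and -0.010), -0.077 to 0.30 for CTNNB1, -0.42 to 0.22 for VIM, -0.20 to 0.021 for ZEB1 and -0.52 to 0.29 for SNAI1. Centring on probes of like signal, a 75th percentile over probes above background on all arrays, and the counts by slide row were chosen after seeing the data. No paired analysis was possible because the groups compared share fewer than 2 replicate numbers. Probe brightness limits TWIST1 A_23_P71073 most.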
